A study of Mus musculus with 9 samples.

Results

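The genes described here encode ADAM proteins of mouse male germ cells that carry fertilisation roles, and proteins that take part in their folding or maturation: Adam1a, Adam1b, Adam2, Adam3, Clgn, Calr3, Pdilt, Tex101, Ly6k and Ace. They were taken by symbol from the NCBI gene rows of the deposited tables, and all 10 had a row among 21877 NCBI genes and 50493 features. RNA came from wild-type mouse testis, as pachytene spermatocytes (PAC, in meiotic prophase), round spermatids (RS, haploid) and elongating spermatids (ES), with 3 libraries each and no treatment; all groups share the genotype labelled WT. The sources used here state neither the isolation of the cells nor the age or number of the animals. Total RNA was depleted of ribosomal RNA, sequenced with strand kept by dUTP, and counted to totals of 22910156 to 33801617 per library. In such bulk samples fewer cells of a type and less RNA per cell cannot be told apart.

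ADAM proteins are membrane proteins with a metalloprotease-like and a disintegrin domain, and many are made in male germ cells. ADAM1A and ADAM1B each pair with ADAM2 (fertilin beta), and ADAM3 must reach the sperm surface for sperm to pass from the uterus into the oviduct and bind the zona pellucida. In the endoplasmic reticulum these proteins are handled by testis relatives of general chaperones: calmegin (CLGN) of calnexin, CALR3 of calreticulin and PDILT of protein disulphide isomerase. TEX101 and LY6K are glycosylphosphatidylinositol (GPI)-anchored germ-cell proteins, and the germ-cell form of angiotensin-converting enzyme, from the Ace gene, acts on TEX101 in the same route of ADAM3 maturation. Loss of many of these proteins in mice leaves sperm without mature ADAM3.

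The labels were checked against marker genes. The summed level of 10 pachytene markers was 2238 to 2304 CPM (counts scaled to a common library size) in PAC, 971 to 1009 in RS and 1112 to 1169 in ES. The 10 round spermatid markers summed to 1328 to 1440, 3053 to 3306 and 2317 to 3139 CPM, and the 10 elongating markers to 2203 to 3070, 15740 to 17870 and 45220 to 72940. Markers of other testis cells were present at lower sums: 12 Sertoli genes gave 43.5 to 96.8 CPM in PAC, 10.5 to 12.0 in RS and 302 to 342 in ES, with Amh at 0 in RS. For 8 Leydig genes the sums were 102 to 139, 2.10 to 2.25 and 19.5 to 26.0 CPM, with Lhcgr at 0 in RS. Macrophage and blood genes (9) gave 5.96 to 7.53, 17.9 to 21.4 and 139 to 220 CPM. Peritubular and vascular genes (8) gave 5.44 to 6.92, 13.9 to 24.0 and 21.1 to 25.0 CPM, with Col1a1 at 0 in PAC, and 10 spermatogonial genes gave 94.1 to 121, 36.7 to 39.4 and 45.6 to 57.7 CPM. ES replicate 1 stood apart in scaling, with a TMM factor of 0.758 against 0.924 and 0.923 in ES replicates 2 and 3.

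All 10 genes were among the 26030 features that passed the low-count filter. In RS against PAC, 5 of the 10 rose (Adam1a, Adam3, Calr3, Pdilt and Ace) and 4 fell (Adam2, Clgn, Tex101 and Ly6k), by edgeR's quasi-likelihood test at a Benjamini-Hochberg adjusted p below 0.05; over all features 38.2% were called higher and 34.2% lower. In ES against RS, 3 rose (Ace, Calr3 and Tex101) and 4 fell (Adam1b, Adam2, Clgn and Pdilt), where 24.5% of all features were called higher and 22.1% lower. In ES against PAC, 5 rose and 5 fell, against 30.6% and 33.7% of all features. The comparisons share libraries, so they are not independent. The median log2 fold change of the 10 was 0.11, 0.04 and -0.04, beside 0.11, 0.05 and -0.09 over all features; over 15031 NCBI genes it was -0.46, 0.18 and -0.38. With 10 genes against such backgrounds, the counts describe the single genes and nothing particular to the set is read from them.

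**Figure D1:**
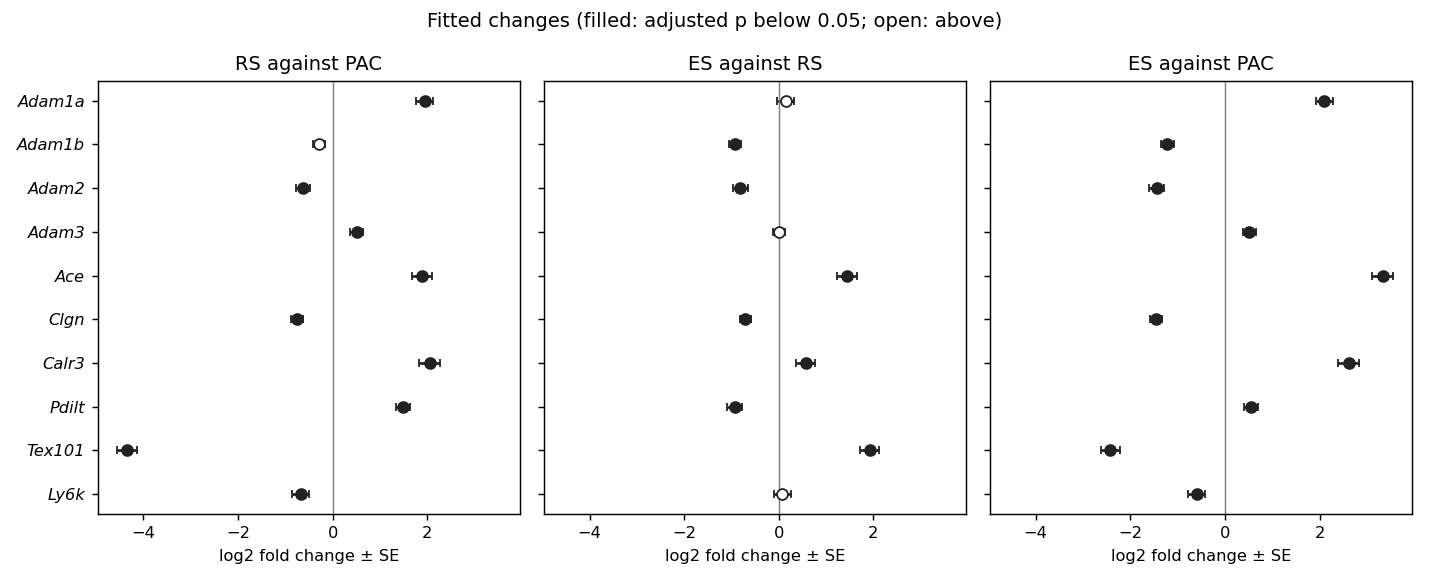
Fitted log2 fold change (horizontal axis, with SE) of each of the 10 genes in the 3 comparisons; filled points have an adjusted p below 0.05 and open points do not. Adam1a, Calr3, Pdilt and Ace lie at 1.49 to 2.05 in RS against PAC and Tex101 at -4.34, and Ace has the value furthest to the right in ES against PAC, 3.33.

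Among the ADAM genes, Adam3 was the most abundant per length in every cell type. Adam3 (chromosome 8, 24677232 to 24726377, GRCm38.p6), which encodes cyritestin, had 2012, 1913 and 2003 CPM in the PAC libraries, 2767, 2778 and 2907 in RS, and 3341, 2637 and 2512 in ES. Every RS and ES library was above every PAC library, and the RS and ES ranges overlapped. Adam3 rose in RS against PAC by 0.51 on the log2 scale (SE 0.13, adjusted p = 0.00497, edgeR quasi-likelihood test). Its fold change in ES against RS was 0.01 (adjusted p = 0.974) after TMM scaling, but -0.34 with total counts alone (adjusted p = 0.0206) and -0.33 on the deposited FPKM (a level per length and depth; adjusted p = 0.0264 by limma), so its direction at that step depends on the scaling. The ES against PAC value of 0.52 (adjusted p = 0.00505) was 0.22 with total counts, where it missed the threshold (adjusted p = 0.0948). Without ES replicate 1 the ES against RS value was -0.13.

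Adam2 (chromosome 14, 66027322 to 66077851), the beta subunit of fertilin, went the other way from Adam3. Its levels were 1204, 955 and 934 CPM in PAC, 605, 684 and 712 in RS, and 340, 448 and 348 in ES. No 2 cell types overlapped, with PAC highest and ES lowest. Adam2 fell by 0.63 (SE 0.15, adjusted p = 0.00349, edgeR quasi-likelihood test) in RS against PAC and by 0.82 (SE 0.16, adjusted p = 0.00126) in ES against RS. With upper-quartile factors the first of these was -0.32 (adjusted p = 0.0896), and among NCBI genes alone it was -0.24 (adjusted p = 0.183). That call thus did not hold in 2 of 21 alternatives. The FPKM ratio of Adam2 to Adam3, which does not depend on library scaling, was 0.629, 0.525 and 0.491 in PAC, 0.230, 0.259 and 0.258 in RS, and 0.107, 0.178 and 0.145 in ES. Every RS ratio was below every PAC ratio, and every ES ratio below every RS ratio. The exact two-sided permutation test of 3 libraries against 3 cannot go below 0.1 and gave 0.1 for each step (adjusted p = 0.1059 over 18 tests).

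Adam1a (chromosome 5, 121518604 to 121521695) and Adam1b (chromosome 5, 121500096 to 121503435) encode the ADAM1 partners of ADAM2, of which ADAM1A stays in the endoplasmic reticulum and ADAM1B reaches the sperm surface. Their deposited counts were divided between the copies: neither is a whole number, while their sum was whole, to within 0.005 counts, in 9 of 9 libraries, and the other 8 genes had whole counts. Of all 31-base stretches of the transcript Adam1a-201, 31.9% also occur in Adam1b-201, and 33.4% of those of Adam1b-201 occur in Adam1a-201, so the counts of either gene are uncertain to the extent of that division. The windows at the RefSeq starts of the copies also differ. They run from 250 bases before to 50 after the start (GRCm38.p6, minus strand), with Adam1a at chr5:121521646-121521945 and Adam1b at chr5:121503386-121503685. Aligned over 317 columns, they matched at 150, or 47.3%. In GENCODE M21 the 1-exon transcript Adam1a-201 runs from 121518576 to 121522071, so the Adam1a window lies inside that exon. Adam1b-201 starts at 121503435, as in RefSeq. Which start was used was not measured. The windows are shown because the levels of the copies differ between cell types. Neither holds the CRE-like motif TGANGTCA, whose matches are in capitals where sequences are printed.
Adam1a: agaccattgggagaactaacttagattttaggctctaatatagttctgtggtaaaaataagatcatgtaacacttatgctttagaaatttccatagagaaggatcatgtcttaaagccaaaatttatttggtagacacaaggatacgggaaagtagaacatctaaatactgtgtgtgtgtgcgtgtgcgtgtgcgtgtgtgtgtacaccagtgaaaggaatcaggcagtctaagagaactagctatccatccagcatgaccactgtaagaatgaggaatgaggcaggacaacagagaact
Adam1b: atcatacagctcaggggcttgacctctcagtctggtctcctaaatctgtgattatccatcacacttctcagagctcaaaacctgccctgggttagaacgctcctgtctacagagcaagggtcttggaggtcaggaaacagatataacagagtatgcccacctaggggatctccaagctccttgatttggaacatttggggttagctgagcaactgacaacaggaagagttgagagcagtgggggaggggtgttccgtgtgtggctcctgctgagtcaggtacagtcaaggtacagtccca

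Adam1a had 148, 197 and 178 CPM in PAC, 638, 675 and 711 in RS, and 948, 670 and 621 in ES. All RS and ES libraries exceeded all PAC libraries, and RS and ES overlapped. Adam1a rose by 1.95 in RS against PAC (SE 0.18, adjusted p = 3.31e-06, edgeR quasi-likelihood test), and its ES against RS value was 0.14 (adjusted p = 0.52), which turned to -0.21 with total counts or FPKM and to -0.06 without ES replicate 1. Adam1b had 244, 195 and 225 CPM in PAC, 173, 188 and 182 in RS, and 86.4, 103 and 97.0 in ES. Its cell types did not overlap. Adam1b fell by 0.92 in ES against RS (SE 0.13, adjusted p = 0.000173), whereas its RS against PAC value of -0.29 missed the threshold (adjusted p = 0.0616); that value passed with DESeq2's size factors (-0.35, adjusted p = 0.031) and was 0.02 with upper-quartile factors and 0.10 among NCBI genes alone. Adam1b thus held 62.3%, 49.7% and 55.8% of the summed counts in PAC, 21.3%, 21.8% and 20.4% in RS, and 8.35%, 13.3% and 13.5% in ES. Counted as a single feature, an alternative added after the data were seen, the pair rose by 1.11 in RS against PAC (SE 0.15, adjusted p = 4.7e-05) and had a value of -0.02 in ES against RS (adjusted p = 0.908).

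**Figure D2:**
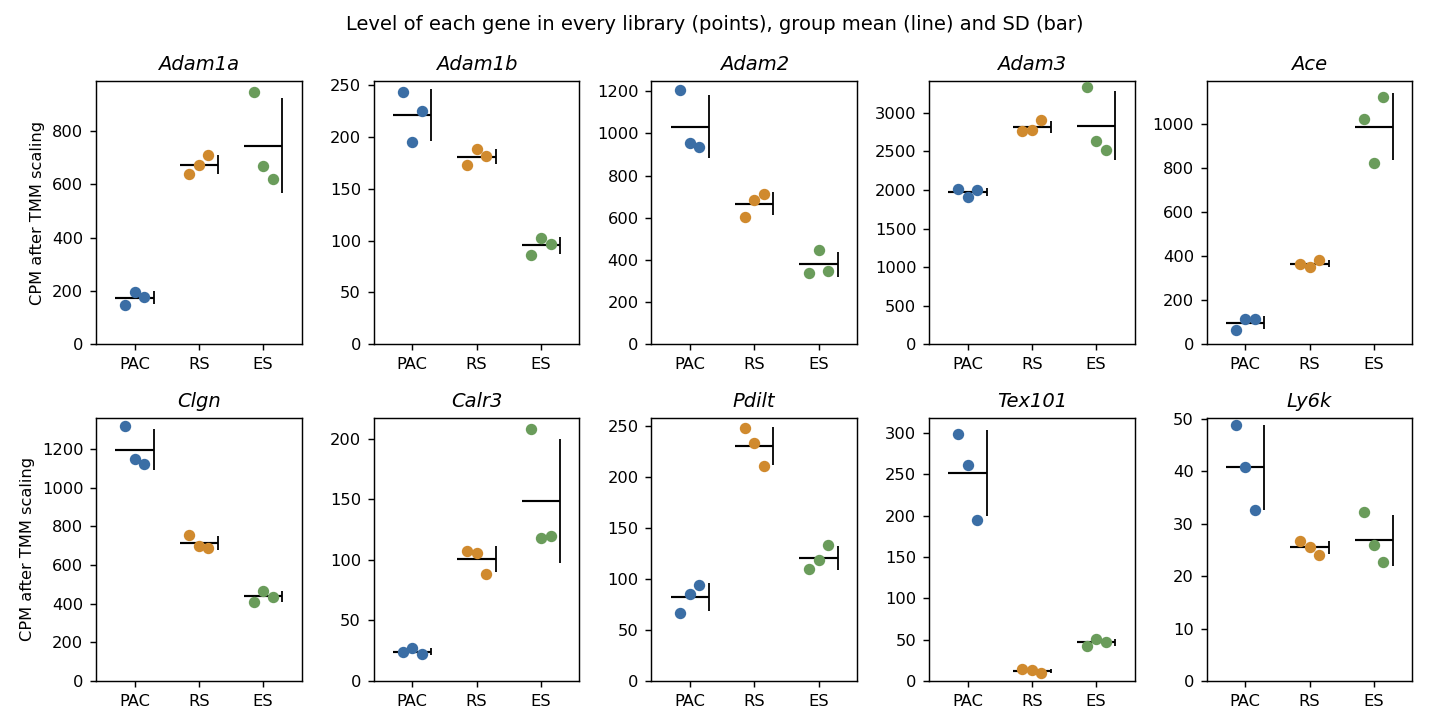
CPM after TMM scaling (vertical axes from 0) in each library (points), with the group mean (line) and SD (bar, n = 3). Adam1b, Adam2 and Clgn have lower means at each later stage, Ace runs from 64.9 in the lowest PAC library to 1122 in the highest ES library, and Pdilt is highest in RS and Tex101 in PAC.

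Clgn (chromosome 8, 83389790 to 83428552), the calnexin relative needed for fertilin assembly, was the most abundant chaperone gene of the 10 per length in each cell type. Its levels were 1318, 1149 and 1125 CPM in PAC, 755, 699 and 687 in RS, and 411, 466 and 437 in ES. PAC was highest and ES lowest, with no overlap. Clgn fell by 0.75 (SE 0.12, adjusted p = 0.000224, edgeR quasi-likelihood test) and then by 0.70 (SE 0.12, adjusted p = 0.00071). Its widely expressed relative Canx (calnexin) had means of 172 ± 14.8 (SD, n = 3), 78.3 ± 1.64 and 59.8 ± 8.05 CPM; it fell at both steps, and 7 of 21 alternatives lost the second fall. The FPKM ratio of Clgn to Canx was 9.86 to 13.0 in PAC, 15.3 to 17.5 in RS and 11.7 to 14.1 in ES. RS did not overlap the others, and ES overlapped PAC (exact permutation p = 0.6 for that pair, 0.1 for the others).

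Calr3 (chromosome 8, 72424176 to 72443819), the calreticulin relative required for ADAM3 to mature, had 23.5, 27.2 and 21.9 CPM in PAC, 107, 106 and 88.2 in RS, and 208, 118 and 120 in ES. PAC lay below all others, and ES replicate 1 lay far above the other ES libraries. Calr3 rose by 2.05 in RS against PAC (SE 0.22, adjusted p = 9.25e-06, edgeR quasi-likelihood test). Its further rise of 0.57 in ES against RS (adjusted p = 0.0442) passed narrowly: 15 of 21 alternatives lost it, and without ES replicate 1 the value was 0.25 (adjusted p = 0.179). Calreticulin (Calr) had 388 ± 17.4 CPM in PAC and 199 ± 7.19 in RS, a fall of 0.97 on the log2 scale (log2 fold change -0.97, adjusted p = 3.63e-05). The FPKM ratio of Calr3 to Calr was 0.0633 to 0.0860 in PAC, 0.499 to 0.642 in RS and 0.797 to 1.74 in ES, with no overlap at either step (exact permutation p = 0.1, the smallest possible). Of its 2 promoter windows, the upstream one (chr8:72443729-72444028, minus strand), printed here, carried TGAGGTCA at -220. It also carried the shorter TGACG in 2 places on the other strand, printed as cgtca. The other (chr8:72435107-72435406) held none of the 5 motifs searched.
Calr3: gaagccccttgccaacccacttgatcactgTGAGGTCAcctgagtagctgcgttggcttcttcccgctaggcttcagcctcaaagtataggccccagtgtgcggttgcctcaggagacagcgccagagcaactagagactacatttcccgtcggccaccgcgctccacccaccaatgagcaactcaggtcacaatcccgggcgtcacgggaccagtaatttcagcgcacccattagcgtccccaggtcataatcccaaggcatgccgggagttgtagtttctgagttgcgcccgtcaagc

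Pdilt (chromosome 7, 119486586 to 119529036), the protein disulphide isomerase relative that works with CLGN on ADAM3, peaked in RS. It had 67.0, 85.2 and 93.8 CPM in PAC, 248, 233 and 211 in RS, and 110, 119 and 133 in ES. Every RS library exceeded every ES library, and these exceeded every PAC library. Pdilt rose by 1.49 in RS against PAC (SE 0.15, adjusted p = 7.03e-06, edgeR quasi-likelihood test) and fell by 0.94 in ES against RS (SE 0.15, adjusted p = 0.000426). The ES against PAC value of 0.56 (adjusted p = 0.00663) missed the threshold with total counts (0.27, adjusted p = 0.203) and with FPKM. P4hb, the general protein disulphide isomerase, had 24.5 ± 1.58 CPM (SD, n = 3) in PAC, 5.06 ± 1.33 in RS and 9.05 ± 2.53 in ES. The FPKM ratio of Pdilt to P4hb was 3.47 to 4.28 in PAC, 44.5 to 64.0 in RS and 13.8 to 20.4 in ES.

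**Figure D3:**
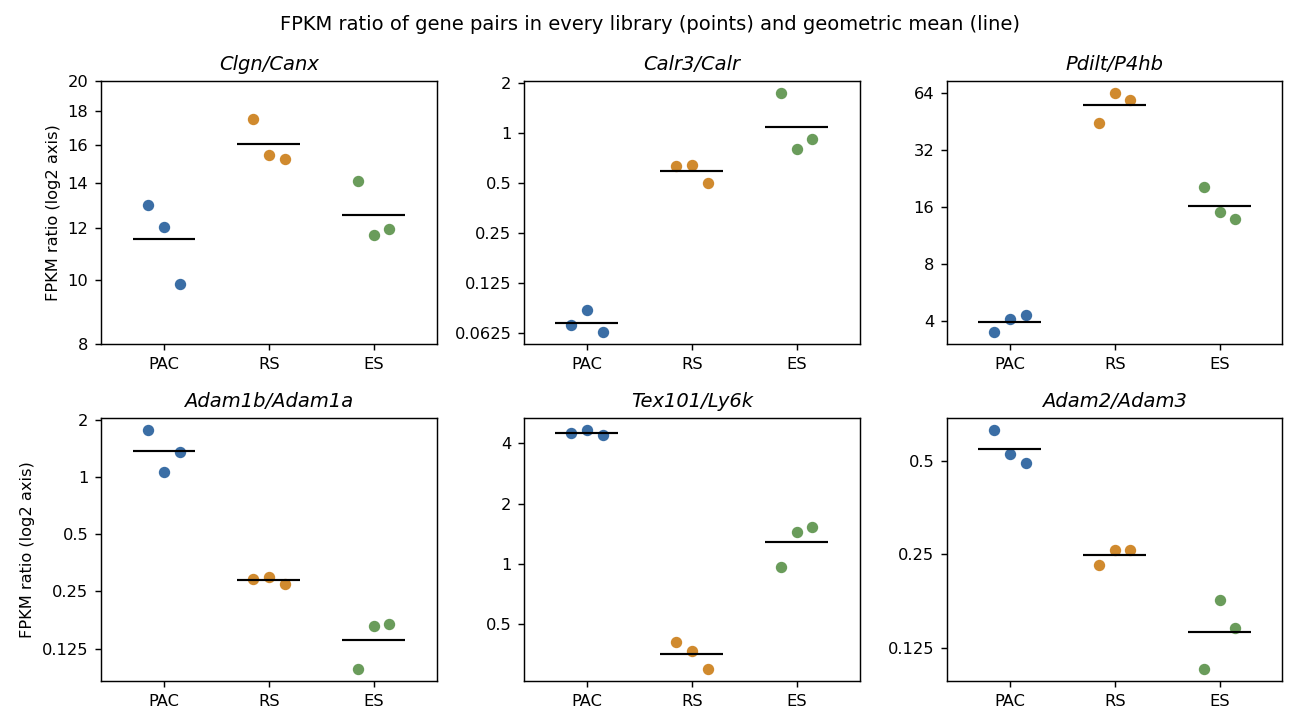
Ratio of deposited FPKM of gene pairs (vertical log2 axes, different in each panel) in each library (points), with the geometric mean (line). Calr3/Calr and Pdilt/P4hb are higher in RS than in PAC in every library, by 3.02 and 3.81 on the log2 scale, and Adam1b/Adam1a and Adam2/Adam3 are lower at each later stage in every library.

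Over the wider list of general folding genes, 14 of 16 tested fell in RS against PAC by edgeR's test and 2 did not pass. Their median was -1.003, with fitted values from -2.49 to -0.13, beside a median of -0.46 over NCBI genes. Of all features, 34.2% were called lower and 38.2% higher. No setting, DESeq2 included, called any of the 16 higher. Hsp90b1 and Hspa5, which encode GRP94 and BiP, fell from 624 to 321 and from 364 to 223 CPM. In ES against RS, 5 rose and 6 fell, against 24.5% and 22.1% of all features (median -0.24, and 0.18 over NCBI genes). In ES against PAC, 2 rose and 14 fell, against 30.6% and 33.7% (median -1.19, and -0.38 over NCBI genes). In RS against PAC the testis chaperones Calr3 and Pdilt rose while their widely expressed relatives Calr and P4hb fell, and Clgn fell beside Canx. Txndc5, a thioredoxin-domain protein of the same compartment, had 3.84 CPM in PAC and 0.842 in RS and rose by 3.82 to 12.0 in ES, and Pdia5 rose by 3.28 from 0.494 to 4.86 CPM. The Sertoli marker sum given above moved the same way, from 10.5 to 12.0 CPM in RS up to 302 to 342 in ES; its part in these rises was not tested.

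Tex101 (chromosome 7, 24668012 to 24672050) had 299, 261 and 195 CPM in PAC, 14.8, 12.7 and 9.70 in RS, and 42.5, 50.9 and 47.2 in ES. PAC was highest and RS lowest, with no overlap. Its return in ES was a rise of 1.92 (SE 0.20, adjusted p = 2e-05, edgeR quasi-likelihood test), leaving ES 2.42 below PAC on the log2 scale (log2 fold change -2.42, adjusted p = 1.56e-06). In the same step 3 of 10 pachytene markers rose and 2 fell, and 11 of 11 tested Sertoli markers rose. Of all features, 24.5% were called higher and 22.1% lower there, so the pachytene counts lie near those shares. The summed pachytene, spermatogonial and Leydig markers each had the order of Tex101, highest in PAC and lowest in RS. The pachytene sum was 2238 to 2304 CPM in PAC, 971 to 1009 in RS and 1112 to 1169 in ES. The spermatogonial sum was 94.1 to 121, 36.7 to 39.4 and 45.6 to 57.7 CPM, and the Leydig sum 102 to 139, 2.10 to 2.25 and 19.5 to 26.0. Most of the spermatogonial sum in PAC was Id4, with means of 86.7, 6.99 and 18.2 CPM in PAC, RS and ES. In ES against PAC, 4 of the 10 spermatogonial genes were called higher and 1, Id4, lower, against 30.6% and 33.7% of all features. The order of that sum is thus not shared by its genes. The part of these markers in the Tex101 values was not tested. Ly6k (chromosome 15, 74796874 to 74799968), whose protein associates with TEX101, had 48.8, 40.9 and 32.5 CPM in PAC, 26.7, 25.6 and 24.1 in RS, and 32.2, 25.9 and 22.6 in ES. PAC lay above both others, which overlapped. Ly6k fell by 0.68 in RS against PAC (SE 0.18, adjusted p = 0.00525) and its ES against RS value was 0.08 (adjusted p = 0.753), or -0.27 with total counts. The fall missed the threshold with upper-quartile factors (-0.37, adjusted p = 0.102) and among NCBI genes alone (-0.29, adjusted p = 0.186), and so did that of ES against PAC (-0.60, adjusted p = 0.0115), which was -0.30 with upper-quartile factors. The FPKM ratio of Tex101 to Ly6k was 4.40 to 4.68 in PAC, 0.299 to 0.409 in RS and 0.970 to 1.53 in ES. The Tex101 promoter window (chr7:24672001-24672300, minus strand) held TGACTTCA at -165, which matches TGANGTCA on the other strand.
Tex101: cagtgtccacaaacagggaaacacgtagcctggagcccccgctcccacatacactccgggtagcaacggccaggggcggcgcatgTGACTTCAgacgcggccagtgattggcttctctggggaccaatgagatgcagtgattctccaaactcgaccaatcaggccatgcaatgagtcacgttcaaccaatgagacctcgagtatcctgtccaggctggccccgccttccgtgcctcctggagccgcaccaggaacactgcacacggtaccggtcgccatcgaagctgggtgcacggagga

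Ace (chromosome 11, 105967948 to 105989964) had the largest overall rise of the 10. Its levels were 64.9, 114 and 115 CPM in PAC, 363, 352 and 382 in RS, and 1022, 822 and 1122 in ES. No library of a later cell type overlapped an earlier one. Ace rose by 1.90 in RS against PAC (SE 0.21, adjusted p = 1.31e-05, edgeR quasi-likelihood test), by 1.43 in ES against RS (SE 0.21, adjusted p = 0.000211) and by 3.33 in ES against PAC (SE 0.23, adjusted p = 4.44e-07), and the ES against RS value ran from 1.07 to 1.58 over 21 alternatives. RefSeq gives the gene an upstream start and an inner start, the latter within the gene. The outer window (chr11:105967698-105967997, plus strand) holds TATAAA on the other strand at -31, and the inner window (chr11:105974939-105975238) holds TGAGGTCA at -52, in capitals. Gene-level counts do not separate transcripts from the starts, so which start was used was not measured.
Ace outer: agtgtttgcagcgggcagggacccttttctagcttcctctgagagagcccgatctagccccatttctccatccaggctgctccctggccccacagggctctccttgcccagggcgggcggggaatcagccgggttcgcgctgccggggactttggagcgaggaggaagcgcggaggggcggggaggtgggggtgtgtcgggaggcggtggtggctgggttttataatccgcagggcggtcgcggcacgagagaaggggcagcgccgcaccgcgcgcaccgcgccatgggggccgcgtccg
Ace inner: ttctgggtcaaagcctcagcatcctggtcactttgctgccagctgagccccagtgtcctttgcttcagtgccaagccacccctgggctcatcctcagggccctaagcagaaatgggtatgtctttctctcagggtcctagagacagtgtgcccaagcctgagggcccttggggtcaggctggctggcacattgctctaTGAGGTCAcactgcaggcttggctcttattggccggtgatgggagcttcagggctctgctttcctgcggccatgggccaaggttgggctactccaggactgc

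In GENCODE M21 the longest Ace transcript (Ace-201) has 4906 bases and the one from the inner start (Ace-202) has 2418. The feature length implied by dividing counts by FPKM, after a library factor set on 828 single-transcript genes, was 3474 ± 31.7 (SD, n = 3) bases for Ace in PAC, 3356 ± 9.86 in RS and 3396 ± 15.5 in ES. It ranged over the 9 libraries by 8.16% for Clgn, 4.52% for Ace, 1.49% for Tex101, at most 0.432% for Adam3, Calr3 and Pdilt, and at most 0.0121% for Adam1a, Adam1b, Adam2 and Ly6k. For Ace the implied lengths of the cell types did not overlap, with PAC longest and RS shortest, and for Clgn those of RS and ES overlapped. Among the 828 genes the range had a median of 0.00434% and a 95th percentile of 24.7%. The ranges of Ace and Clgn lie far above that median and below that percentile. Whether they reflect a change in transcripts was not tested, and nothing is read from them about transcripts. Motifs were searched on both strands of 32851 windows: TGANGTCA is in 8.83%, TGACGTCA in 1.79%, TATAAA in 13.6%, AACNGNC in 32.8% and TGACG in 20.8%. TGACGTCA is contained in TGANGTCA and itself contains TGACG. Promoter windows were found for 6 of the 10 genes (8 windows); AACNGNC was in those of Adam1b, Tex101 and Pdilt, and TGACGTCA in none of the 8. These matches describe letters and not binding.

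Per length, Adam3 led in each cell type with mean FPKM of 759 ± 5.92 (SD, n = 3) in PAC, 1126 ± 30.6 in RS and 894 ± 40.6 in ES, the 72nd, 47th and 95th highest of the NCBI genes. In PAC it was followed by Clgn (485) and Adam2 (416), whose ranges overlapped, then Tex101 (250), Adam1b (80.3), Adam1a (59.3), Ly6k (55.2), Pdilt (40.2), Ace (29.8) and Calr3 (15.2); of the last 6, Adam1a overlapped Ly6k, Ly6k overlapped Pdilt, and Pdilt overlapped Ace. In RS the order was Clgn (320), Adam2 (280), Adam1a (238), Ace (119), Pdilt (117), Adam1b (68.4), Calr3 (65.8), Ly6k (36.0) and Tex101 (13.0), with overlap between Ace and Pdilt and between Adam1b and Calr3. In ES it was Ace (253), Adam1a (206), Clgn (152), Adam2 (128), Calr3 (75.7), Pdilt (49.2), Tex101 (39.0), Ly6k (29.9) and Adam1b (28.9), with overlap between Ace and Adam1a, Clgn and Adam2, Pdilt and Tex101, Tex101 and Ly6k, Tex101 and Adam1b, and Ly6k and Adam1b. Ace so went from the ninth to the second place of the 10. Summed over the 10 the FPKM was 2062 to 2312 in PAC, 2360 to 2416 in RS and 1843 to 1877 in ES. Of the summed FPKM of the 4 ADAM genes, Adam3 took 55.3% to 59.7% in PAC, 65.1% to 67.0% in RS and 69.5% to 72.4% in ES.

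**Figure D4:**
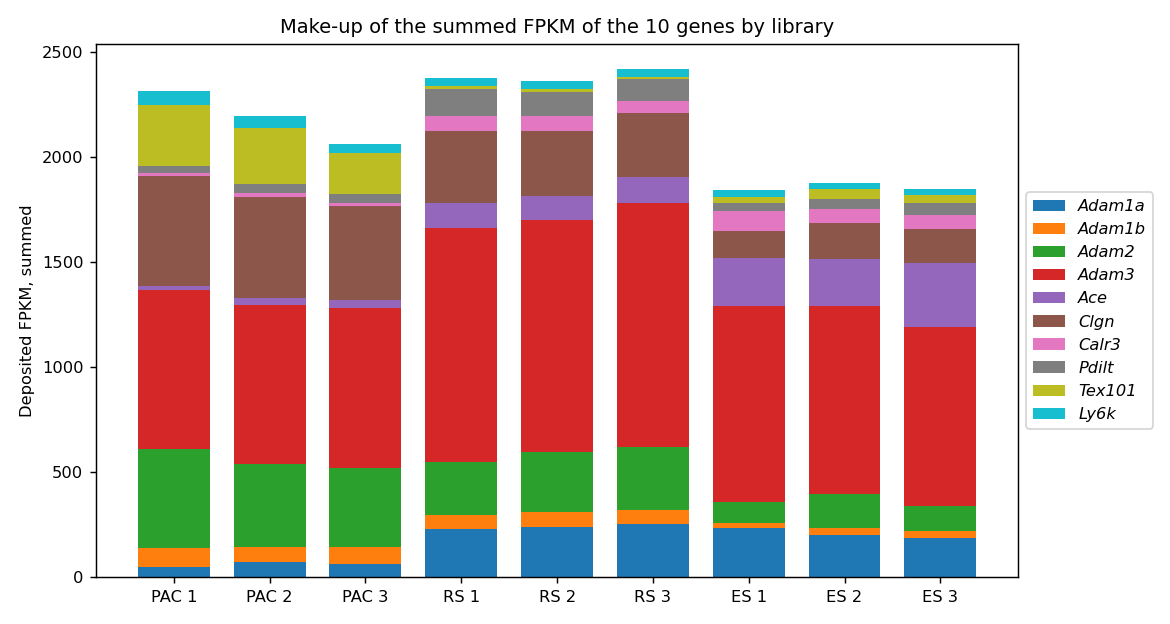
Deposited FPKM of the 10 genes stacked for each library (vertical axis from 0). Adam3 fills the largest part in every library, and Clgn, Adam2 and Tex101 fill less, and Adam1a and Ace more, in the ES than in the PAC libraries.

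Most other ADAM genes of testis rose in RS. Of 16 tested, 12 rose and 1 fell (Adam18) in RS against PAC (median 1.70), where 38.2% of all features were called higher and 34.2% lower. In ES against RS 2 rose and 9 fell (median -0.68; 24.5% and 22.1% of all features), and in ES against PAC 9 rose and 3 fell (median 0.63; 30.6% and 33.7%). Adam5, next to Adam3 with 715 bases between them, had 1804 ± 92.7, 1824 ± 46.6 and 1873 ± 219 CPM (SD, n = 3) in PAC, RS and ES and passed in no comparison; its largest fold change was 0.06. Adam18, on the other side of Adam3, had 324, 251 and 162 CPM; its first fall of 0.36 (adjusted p = 0.0255, edgeR quasi-likelihood test) did not hold in 12 of 21 alternatives, and its second was 0.64 (log2 fold change -0.64, adjusted p = 0.00215). Adam32 had 699, 643 and 499 CPM and fell in ES against RS by 0.37 (adjusted p = 0.0195), a call that 6 of 21 alternatives lost. Adam21 and Adam34 rose at both steps, from 28.5 to 119 and 187 CPM and from 19.3 to 61.6 and 145 CPM; the second rise of Adam21, 0.66 (adjusted p = 0.00414), missed the threshold in 4 of 21 alternatives, with total counts (0.32) and with FPKM. Shared sequence was measured only for Adam1a and Adam1b. Where genes of this list share sequence, as Adam6a and Adam6b or Adam24 to Adam26b may, their counts would be uncertain too. Of 10 widely expressed ADAM genes tested of 12 listed, 1 rose and 8 fell in RS against PAC, against the same 38.2% and 34.2%. Their median was -0.996, beside -0.46 over NCBI genes. Adam17, the TACE protease, had 15.2, 4.30 and 6.12 CPM.

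Prss37 and Prss55, protease-like genes needed for ADAM3 to mature, rose at both steps, from 58.0 to 275 and 604 CPM and from 20.9 to 98.3 and 224 CPM. Among 8 tested genes listed for ADAM3 maturation and sperm migration, proteases or not, 4 rose and 2 fell in RS against PAC, 3 rose and 4 fell in ES against RS, and 2 rose and 5 fell in ES against PAC. For these and the lists that follow, the shares of all features called higher and lower were 38.2% and 34.2% in RS against PAC, 24.5% and 22.1% in ES against RS, and 30.6% and 33.7% in ES against PAC, and several of the counts lie near them. Lypd4, a GPI-anchored relative of TEX101, had 775, 1002 and 515 CPM, with a rise of 0.37 (adjusted p = 0.0211, edgeR quasi-likelihood test) that 4 of 21 alternatives lost and a fall of 0.96 in ES. Cmtm2a and Cmtm2b had 611, 642 and 520 and 603, 631 and 457 CPM, with values of -0.30 and -0.47 in ES against RS that passed (adjusted p = 0.0487 and 0.0206) but did not hold in 13 and 5 alternatives. Of 6 tested genes for sperm-egg fusion, 6 rose in RS against PAC (median 1.56) and 5 fell in ES against RS; Izumo1, the sperm ligand for the egg receptor, went from 42.2 to 126 and 64.1 CPM. In GPI-anchored sperm surface genes, 3 of 5 rose and 1 fell in RS and 1 rose and 4 fell in ES against RS. The angiotensin list gave 2 rising and 3 falling of 6 tested in RS; Ace3, which lies 4623 bases from Ace, rose by 1.52 to 73.1 CPM and fell by 0.97 to 37.2 in ES, and Agt, the angiotensinogen gene, had 26.2, 0.285 and 2.14 CPM.

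**Figure D5:**
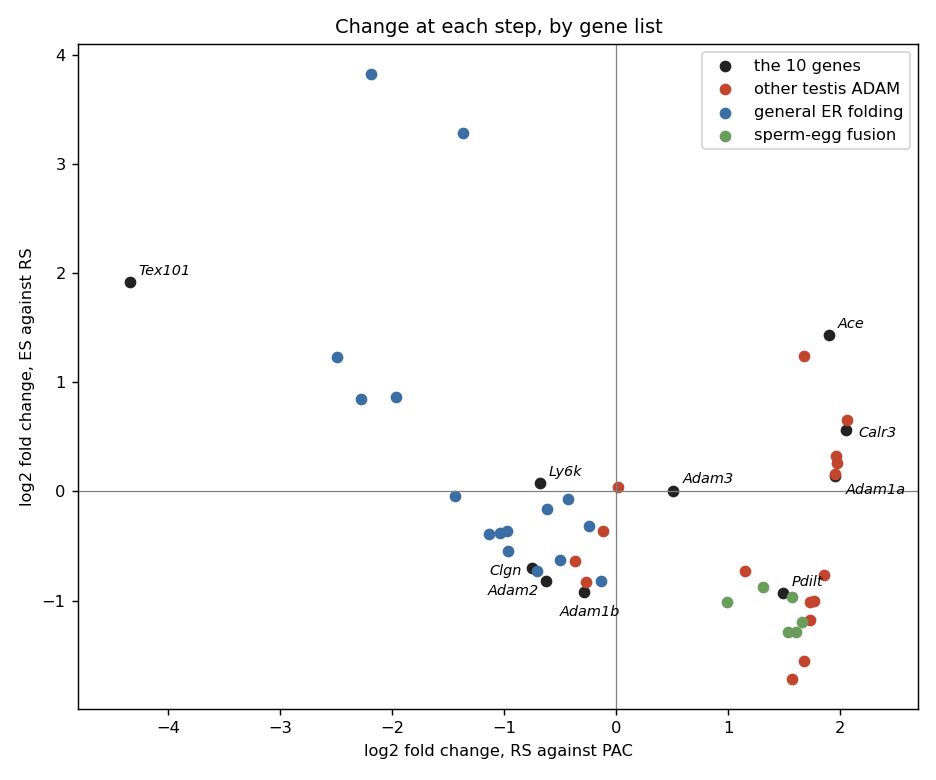
Fitted log2 fold change of RS against PAC (horizontal) and ES against RS (vertical) for the 10 genes (black, named), other testis ADAM genes (red), general folding genes (blue) and fusion genes (green). The axes share the RS libraries, so points need not be independent; the fusion genes lie to the right and below 0, and Tex101 lies alone at -4.34 and 1.92.

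Of the overlapping features with a row, Gm11651 (overlapping Ace) reached at most 1.12 CPM, Acsm5 (overlapping Pdilt) 0.311 and Gm46043 (overlapping Calr3) 0.133. Tmem116, which overlaps Adam1b by its annotated span, reached 31.2 CPM. Adjacent genes reached higher levels: Adam5 up to 2126 CPM and Adam18 up to 364 beside Adam3, Ace3 up to 76.9 near Ace, and 1700030K09Rik, 60 bases from Calr3, up to 120 CPM, with a PAC mean of 103 above that of Calr3. The sources used here do not state whether counting used strand. By mean-centred log2 CPM over the 9 libraries, the genes nearest to Adam3 of 14954 compared were Dcaf12 (distance 0.148), Dgka (0.186) and Mrpl47 (0.224). Clgn was nearest to Rpp38 (0.193), Lyar (0.198) and Gpr19 (0.205), and Ace to Inpp4a (0.275), Herpud2 (0.305) and Cdk16 (0.370). Tex101 was nearest to H2ax (0.410), Ccne2 (0.447) and Lypd11 (0.514), the first of which went from 219 to 11.4 and 49.0 CPM. These libraries form 3 groups, so the distances describe shared group levels.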

How the data were processed

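RNA was measured in 9 libraries, 3 for each of PAC, RS and ES. The authors deposited estimated counts per feature, called raw counts by them although 18.8% of values are not whole, and FPKM of the same features; HISAT2, StringTie and GRCm38.p6 are named per the submitters' processing notes, without versions, and no source used here states the lengths and totals behind the FPKM. The deposited counts were rounded to whole numbers, kept by filterByExpr (minimum count 10; 26030 of 50493 features), scaled by TMM and fitted with edgeR 4.0.16 (quasi-likelihood, robust, two-sided, all 9 libraries; common biological coefficient of variation 0.24), in R 4.3.3. P-values were adjusted by Benjamini-Hochberg over all 26030 features and called at 0.05. CPM are after TMM scaling. Ratios of FPKM were tested by an exact permutation test (scipy 1.17.1). Alternatives were other scalings and filters, DESeq2 1.42.0, limma 3.58.1 on log2(FPKM + 0.1) or log2(FPKM + 1), NCBI genes alone, 2 cell types alone, a replicate block and leaving out each library. The fit was tested on simulated data.

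Symbols matched 21726 NCBI genes by gene ID in a reference table of the same build. The genes and lists were chosen with earlier results of these data known. Genes beyond the 10 were named by rule: from each list the 3 most abundant and the 2 others with the largest called change, the 3 nearest in profile to Adam3, Clgn, Tex101 and Ace, and both genes of each ratio. Genes named outside it were chosen after their values were seen. Tmem116, Gm11651, Acsm5, Gm46043 and 1700030K09Rik were named as overlapping or adjacent features. Adam6a, Adam6b and Adam24 to Adam26b were named as possible near copies, and Amh, Lhcgr and Col1a1 as markers at 0. Id4 was named for its share of a marker sum. The labels call the libraries replicates and the design text biological replicates, without naming animals, so p-values measure the spread between these libraries, which may be technical. Same-numbered libraries did not deviate together in every pair, so numbers were not taken to pair them. Python 3.11.15, pandas 2.3.3, biopython 1.88 and matplotlib 3.10.9 were also used.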

Additional observations from a re-analysis of the deposited data

How the results depend on the processing

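Of 636 log2 fold changes of the 10 genes under alternatives, 571 kept their direction and side of the threshold, 31 lost the call, 5 gained it and 29 reversed; the differences in FPKM ratio kept their sign in 144 of 144, while their test cannot pass 0.05 in any setting. The cause of changes was not tested. The median of all features in RS against PAC, ES against RS and ES against PAC moved from 0.11, 0.05 and -0.09 to 0.42, 0.05 and 0.21 with upper-quartile factors and to 0.16, -0.28 and -0.38 with total counts. Genes of the 10 called lower in RS against PAC numbered 2 with upper-quartile factors and 2 among NCBI genes alone, and those called higher in ES against PAC numbered 3 with total counts and with each FPKM setting. Among NCBI genes alone 5175 features were higher and 5459 lower in RS against PAC, and 4669 and 5509 in ES against PAC. In ES against RS, FPKM with pseudocount 0.1 gave 4117 higher and 8805 lower, pseudocount 1 gave 9074 lower, and pseudocount 0.1 without filter gave 3987 higher.

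Reversals in ES against RS were, for Adam1a, -0.208 with total counts, -0.211, -0.21 and -0.211 on FPKM (pseudocount 0.1, 1 and 0.1 unfiltered) and -0.024 summed with Adam1b. For Adam3 they were -0.339 with total counts, -0.04 unfiltered, -0.118 among NCBI genes, -0.002 with the replicate block and -0.334, -0.333 and -0.334 on FPKM; for Ly6k -0.27, -0.049 among NCBI genes and -0.269, -0.262 and -0.269 on FPKM. Leaving out single libraries gave -0.064 to 0.25 for Adam1a, -0.13 to 0.074 for Adam3 and -0.072 to 0.175 for Ly6k. In RS against PAC, Adam1b was 0.017 with upper-quartile factors, 0.099 among NCBI genes and 1.113 summed with Adam1a (1.089 in ES against PAC), Adam18 was 0.024 among NCBI genes, Adam11 was 1.254, 1.012 and 1.254 on FPKM (1.654, 1.372 and 1.654 in ES against PAC) and Adam22 was 0.106, 0.081 and 0.106. Over single libraries left out, the genes of the 10 called higher numbered 5 to 5, 2 to 3 and 5 to 5 and those lower 4 to 5, 4 to 4 and 5 to 5 in the 3 comparisons.

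Same-numbered libraries correlated at -0.018 to 0.094 for RS against PAC, -0.04 to 0.056 for ES against RS and -0.014 to 0.236 for ES against PAC. Differently numbered libraries correlated at -0.09 to 0.074, -0.104 to 0.086 and -0.221 to 0.072. In ES against PAC, replicates 1 and 3 (0.163 and 0.236) thus lay above every differently numbered pair, and replicate 2 (-0.014) did not. The replicate block left 5 higher and 4 lower, 3 and 4, and 5 and 5 of the 10, with 10117 and 8950, 6407 and 5968, and 8025 and 8981 of all features.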
